A study of Mus musculus with 12 samples.

Results

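The genes described here are transcription factors that specify and maintain the GABAergic interneuron lineage of the ventral forebrain: Dlx1, Dlx2, Dlx5, Dlx6, Lhx6, Nkx2-1, Sp8 and Gsx2. A member was taken from the array where a probe set carried exactly 1 gene symbol equal to its name. This gave 7 of the 8 genes, each with 1 probe set, out of 41345 probe sets in all. The probe set of Dlx1 also carries the symbol of its antisense transcript Dlx1as, so Dlx1 was not analysed here. All 7 passed the filter on dim probe sets (a mean log2 of 5.72 over all arrays) and were among the 17467 genes tested.

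The study measured RNA of neurons grown in primary culture from embryonic brain of outbred ICR (CD-1) mice, on 12 whole-transcript Affymetrix arrays. Each antidepressant was added on day 3 in culture and left for 48 h, and RNA was taken on day 5. The groups were amitriptyline (5 µM), citalopram (10 µM), duloxetine (0.1 µM), imipramine (5 µM), mirtazapine (50 µM) and control, with 2 arrays each. The labels do not say which brain region was dissected, what the control cultures received or whether the 2 replicates of a group had different animals or dishes as their source. The p-values below therefore reflect the spread among these arrays alone, which may be technical.

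As background, these factors act in sequence along the lineage. Nkx2-1 gives the medial ganglionic eminence its identity and switches on Lhx6, while Gsx2 patterns progenitors of the lateral and caudal eminences. Dlx1 and Dlx2 act in progenitors and young neurons, promote Dlx5 and Dlx6, and are needed for GABA synthesis and tangential migration. In the genome Dlx2 neighbours Dlx1, and Dlx6 neighbours Dlx5. Lhx6 is kept by interneurons born in the medial eminence, and Sp8 marks cells of the lateral and caudal eminences.

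Promoter windows from RefSeq (build GRCm38.p6) were found for 6 of the 8 genes, Dlx1 among them, as 10 windows of the 250 bases before a transcription start. They were searched on both strands for TAATTA, a core bound by homeodomain proteins, for CAAGTG, a core bound by Nkx2 proteins, and for the GC box GGGCGG, bound by Sp factors. Among the 32851 windows of the table, 4.84% held TAATTA, 11.6% held CAAGTG and 32.7% held GGGCGG. The windows of Lhx6, Gsx2 and Nkx2-1 are shown because the results turn on these genes: Lhx6 was above both control arrays on every drug array, Gsx2 was below them on 8 of the 10, and Nkx2-1 had the widest range between group means. They are printed 5′ to 3′ on the gene's strand, with the GC box in capitals. For Lhx6, which has 3 windows, the outermost start is shown.
Lhx6, chr2:36105409-36105658, minus strand: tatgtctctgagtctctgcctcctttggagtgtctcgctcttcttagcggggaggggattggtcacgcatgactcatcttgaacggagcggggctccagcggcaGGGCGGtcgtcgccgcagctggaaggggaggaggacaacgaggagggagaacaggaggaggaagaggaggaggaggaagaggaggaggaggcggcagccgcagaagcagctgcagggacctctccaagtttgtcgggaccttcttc
Gsx2, chr5:75075351-75075600, plus strand: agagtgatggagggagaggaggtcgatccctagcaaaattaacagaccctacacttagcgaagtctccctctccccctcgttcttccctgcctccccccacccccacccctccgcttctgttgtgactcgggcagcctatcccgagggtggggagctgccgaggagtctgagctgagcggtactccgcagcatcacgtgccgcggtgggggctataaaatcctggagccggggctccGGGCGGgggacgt
Nkx2-1, chr12:56536909-56537158, minus strand: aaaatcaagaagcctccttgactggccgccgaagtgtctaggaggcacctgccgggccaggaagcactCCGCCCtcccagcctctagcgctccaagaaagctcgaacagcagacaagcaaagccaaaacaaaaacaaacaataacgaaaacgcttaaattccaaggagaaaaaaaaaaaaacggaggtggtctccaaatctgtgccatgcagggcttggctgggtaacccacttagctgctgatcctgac
Each of these windows holds 1 GC box and neither of the other motifs, with the first base of the box at position -146 of Lhx6, -13 of Gsx2 and -182 of Nkx2-1 relative to the start. The Nkx2-1 match lies on the opposite strand and reads CCGCCC. Among the member windows not shown, a GC box was found in that of Dlx2, in the second of Lhx6 and in the second of Sp8. None was found in the window of Dlx1, the third of Lhx6 or the other windows of Sp8. The homeodomain and Nkx2 cores were each found once, both in a window of Sp8, at positions -188 and -84.

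Some technical facts touch the values below. Duloxetine replicate 2 and mirtazapine replicate 2 stand apart from the other 10 arrays: their slopes on the mean of the other arrays were 0.923 and 0.908, against 0.997 to 1.029 elsewhere. The median gene of the lowest quartile by level, which includes Nkx2-1 and Sp8, read 0.253 and 0.246 log2 units higher on them than on the other arrays. Where leaving out both moves a member's difference by over 1.5 times, the value without them is given; mirtazapine and duloxetine then have 1 array each, which is assumed to vary like the other groups. Replicate 2 was above replicate 1 for 7 of 7 members in control (median 0.18, against 0.03 over all genes) and with amitriptyline (median 0.16), and for 4 to 6 members with each other drug, with member medians of 0.02 to 0.13. In control, 9 of the 10 pan-neuronal markers lay between the 88.7 and 99.9 percentiles of tested genes and Nefm at 43.6, while the GABA genes Gad1, Slc32a1 and Gad2 lay at 45.2, 48.1 and 65.2.

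No member changed at an adjusted p under 0.05 in limma in any comparison, whether of a drug with control, of the mean of the drugs with control or of the 6 groups together by F test. The share of all tested genes called was 0% for amitriptyline, citalopram and duloxetine, 0.0286% for imipramine, 1.74% for mirtazapine, 0.0515% for the mean of the drugs and 0.103% for the F test. In bulk RNA a different number of GABAergic cells and a different amount of RNA per cell cannot be told apart. The lowest member adjusted p was 0.073, for Nkx2-1 under mirtazapine. At an unadjusted p under 0.05, 3 of 7 members passed under mirtazapine, where 22.4% of all genes did, 2 of 7 under duloxetine (10.0%) and 2 of 7 under amitriptyline (6.14%). The same threshold passed 1 of 7 under imipramine (4.56% of all genes) and 0 of 7 under citalopram (4.44%). On the log2 scale the median difference over the members was 0.13 for amitriptyline, 0.165 for citalopram, 0.2 for duloxetine, 0.135 for imipramine and 0.295 for mirtazapine, while the medians of all genes lay between -0.035 and -0.005. The direction was positive for 5, 5, 7, 4 and 6 of the 7 members in the same order of drugs. The share of all genes with a positive difference was 41.7%, 47.4%, 46.6%, 45.9% and 44.1%. Among the members 1 difference, that of Dlx2 under citalopram, was 0. These comparisons share the same 2 control arrays and are not independent of each other. The mean over the 7 members, set to 0 in control, was -0.1 and 0.1 on the control arrays. It was 0.024 and 0.154 with amitriptyline, 0.094 and 0.093 with citalopram, and 0 and 0.101 with imipramine. With duloxetine it was 0.176 and 0.263, and with mirtazapine 0.196 and 0.294.

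**Figure D1:**
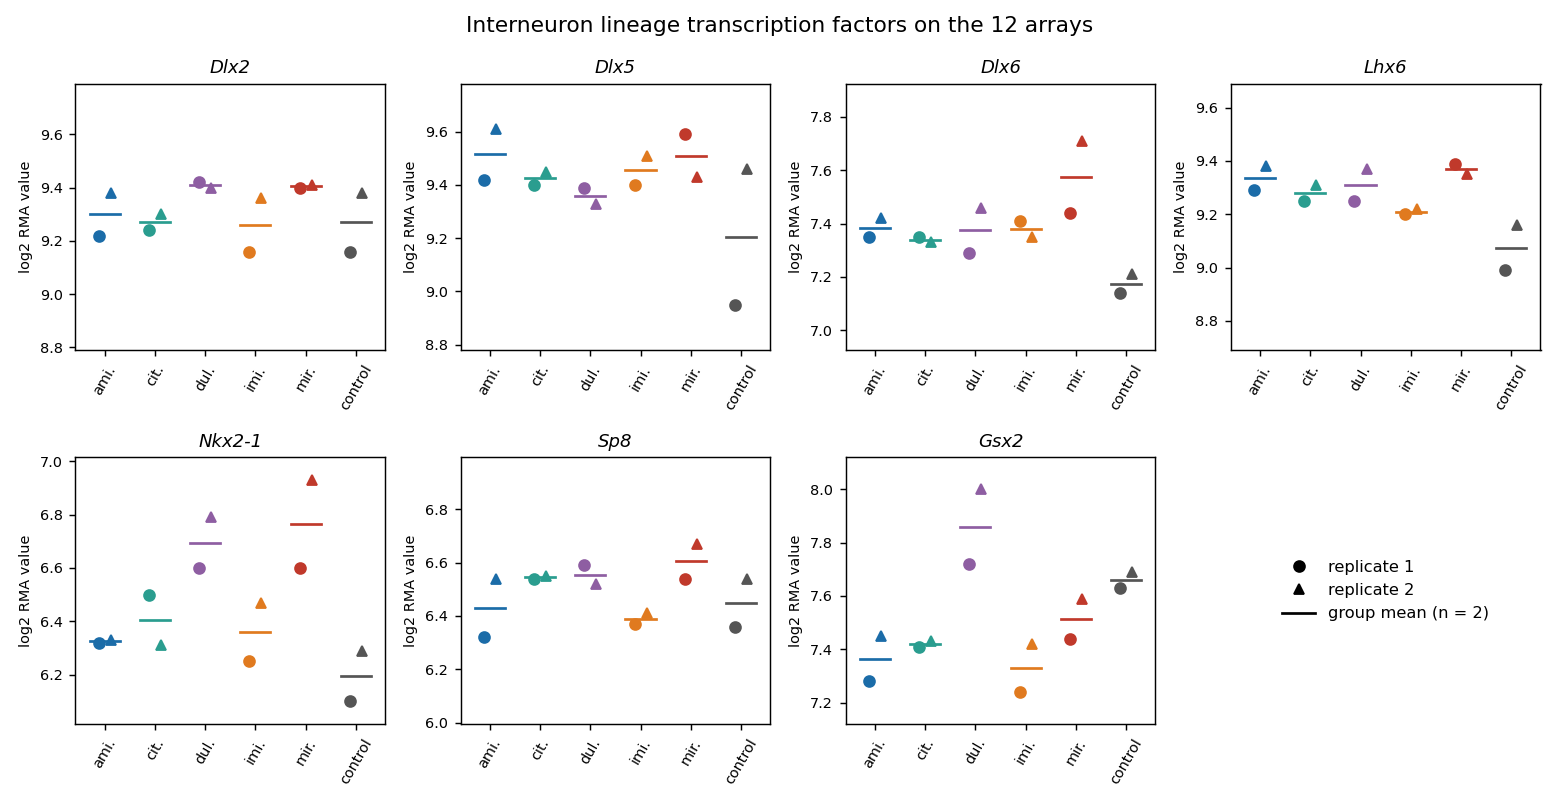
Log2 RMA values of the 7 measured genes on each of the 12 arrays, by group (ami., amitriptyline; cit., citalopram; dul., duloxetine; imi., imipramine; mir., mirtazapine); lines are means of 2 arrays. Dlx6 and Lhx6 lie above both control arrays on all 10 drug arrays, and Gsx2 lies below them on the arrays of 4 drugs and above them on those of duloxetine.

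Nkx2-1, the medial eminence selector, had the largest difference from control among the members under mirtazapine and duloxetine. Its log2 values were 6.32 and 6.33 with amitriptyline, 6.5 and 6.31 with citalopram, 6.6 and 6.79 with duloxetine, 6.25 and 6.47 with imipramine and 6.6 and 6.93 with mirtazapine, against 6.1 and 6.29 in control. Of the 10 drug arrays 9 were above both control arrays, and imipramine replicate 1 lay between them. Under mirtazapine the mean was 6.77 ± 0.23 (SD, n = 2), against 6.2 ± 0.13 (n = 2) in control, a 1.48-fold difference (log2 difference 0.57 ± 0.14 SE, 95% interval 0.26 to 0.88, limma adjusted p = 0.073). Under duloxetine the mean was 6.7 ± 0.13 (n = 2), 1.41-fold that of control (log2 difference 0.5, 95% interval 0.19 to 0.81, adjusted p = 0.492). Without the arrays that stand apart the difference was 0.405 under each drug, with an adjusted p of 0.15 for mirtazapine and 0.74 for duloxetine. The F test over the 6 groups gave an adjusted p of 0.322 (unadjusted p = 0.0131).

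Lhx6, the LIM homeobox gene that Nkx2-1 activates, had log2 values of 9.29 and 9.38 with amitriptyline, 9.25 and 9.31 with citalopram, 9.25 and 9.37 with duloxetine, 9.2 and 9.22 with imipramine and 9.39 and 9.35 with mirtazapine, against 8.99 and 9.16 in control. All 10 drug arrays were above both control arrays, the closest by 0.04. Only Dlx6 shared this among the members, 2 of 7, where 1.06% of all genes were above both controls on all drug arrays, and 0 members were below on all of them (3.67%). Without the 2 arrays that stand apart, the same 2 members were above on the remaining 8, where 2.04% of all genes were. The mean of the drugs was 1.17-fold that of control (log2 difference 0.23 ± 0.07 SE, 95% interval 0.07 to 0.39), with an adjusted p of 0.33. The difference was 0.141 without control replicate 1 and 0.311 without control replicate 2.

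Dlx2, which acts in progenitors and newborn neurons, had log2 values of 9.22 and 9.38 with amitriptyline, 9.24 and 9.3 with citalopram, 9.42 and 9.4 with duloxetine, 9.16 and 9.36 with imipramine and 9.4 and 9.41 with mirtazapine, against 9.16 and 9.38 in control. The control arrays alone spanned all but 4 of the drug arrays, and those 4, of duloxetine and mirtazapine, lay at most 0.04 above them. The largest difference from control was 0.14 under duloxetine (95% interval -0.1 to 0.38, limma adjusted p = 0.599).

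Dlx5, a later Dlx gene of maturing GABAergic neurons, had 9.42 and 9.61 with amitriptyline, 9.4 and 9.45 with citalopram, 9.39 and 9.33 with duloxetine, 9.4 and 9.51 with imipramine and 9.59 and 9.43 with mirtazapine, against 8.95 and 9.46 in control. Control replicate 1 was the lowest of the 12 arrays, and control replicate 2 was higher than 7 of the 10 drug arrays. The mean of the drugs exceeded that of control by 0.25 log2 units (95% interval -0.01 to 0.51, adjusted p = 0.587), and this value rested on control replicate 1: it was -0.007 without control replicate 1 and 0.503 without control replicate 2.

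Dlx6, the neighbour of Dlx5, had log2 values of 7.35 and 7.42 with amitriptyline, 7.35 and 7.33 with citalopram, 7.29 and 7.46 with duloxetine, 7.41 and 7.35 with imipramine and 7.44 and 7.71 with mirtazapine, against 7.14 and 7.21 in control. All drug arrays lay above both controls, the highest being mirtazapine replicate 2. Under mirtazapine the level was 1.32-fold that of control (log2 difference 0.4 ± 0.11 SE, 95% interval 0.16 to 0.64, adjusted p = 0.0925), and the log2 difference was 0.265 without the arrays that stand apart (adjusted p = 0.149). Under the other drugs it lay between 0.165 and 0.21, and under duloxetine it was 0.115 without duloxetine replicate 2. Dlx6os1, the long noncoding RNA transcribed across Dlx6 from the other strand, had log2 values of 8.67 and 8.21 with mirtazapine, against 7.85 and 8.13 in control (difference 0.45 ± 0.2 SE, adjusted p = 0.217). With duloxetine Dlx6os1 lay at 8.21 and 7.66, with 1 array on either side of the control arrays.

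Sp8, a zinc finger gene of the lateral and caudal eminences, had log2 values of 6.32 and 6.54 with amitriptyline, 6.54 and 6.55 with citalopram, 6.59 and 6.52 with duloxetine, 6.37 and 6.41 with imipramine and 6.54 and 6.67 with mirtazapine, against 6.36 and 6.54 in control. Every drug group overlapped the control arrays. Its differences from control lay between -0.06 under imipramine and 0.155 under mirtazapine, where the 95% interval was -0.08 to 0.39 and the difference was 0.09 without mirtazapine replicate 2. Its close relative Sp9, which acts in the same lineage, had positive differences under all 5 drugs, from 0.145 to 0.245, with adjusted p of 0.36 or above.

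Gsx2, the progenitor patterning gene, had the most negative difference among the members under 4 of the drugs. Its log2 values were 7.28 and 7.45 with amitriptyline, 7.41 and 7.43 with citalopram, 7.72 and 8 with duloxetine, 7.24 and 7.42 with imipramine and 7.44 and 7.59 with mirtazapine, against 7.63 and 7.69 in control. The 8 arrays of amitriptyline, citalopram, imipramine and mirtazapine were all below both control arrays, as were those of 7.56% of all genes (on the same 8 arrays 2 members, Dlx6 and Lhx6, and 2.79% of all genes were above), and both duloxetine arrays were above them. Imipramine had the largest negative difference, at 0.796 of the control level (log2 difference -0.33 ± 0.12 SE, 95% interval -0.59 to -0.07, limma adjusted p = 0.744). It was followed by amitriptyline (-0.3, adjusted p = 0.702), citalopram (-0.24, adjusted p = 1) and mirtazapine (-0.15, adjusted p = 0.447), the last at -0.22 without mirtazapine replicate 2. The duloxetine difference of 0.2 (95% interval -0.06 to 0.46, adjusted p = 0.54) was 0.06 without duloxetine replicate 2. The F test over the groups gave an adjusted p of 0.291 (unadjusted p = 0.00903), the lowest of the members. Gsx1, its paralogue, was also lower under these 4 drugs, by differences of -0.12 to -0.24, none of which passed (adjusted p of 0.373 or above), and differed by -0.045 under duloxetine.

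**Figure D2:**
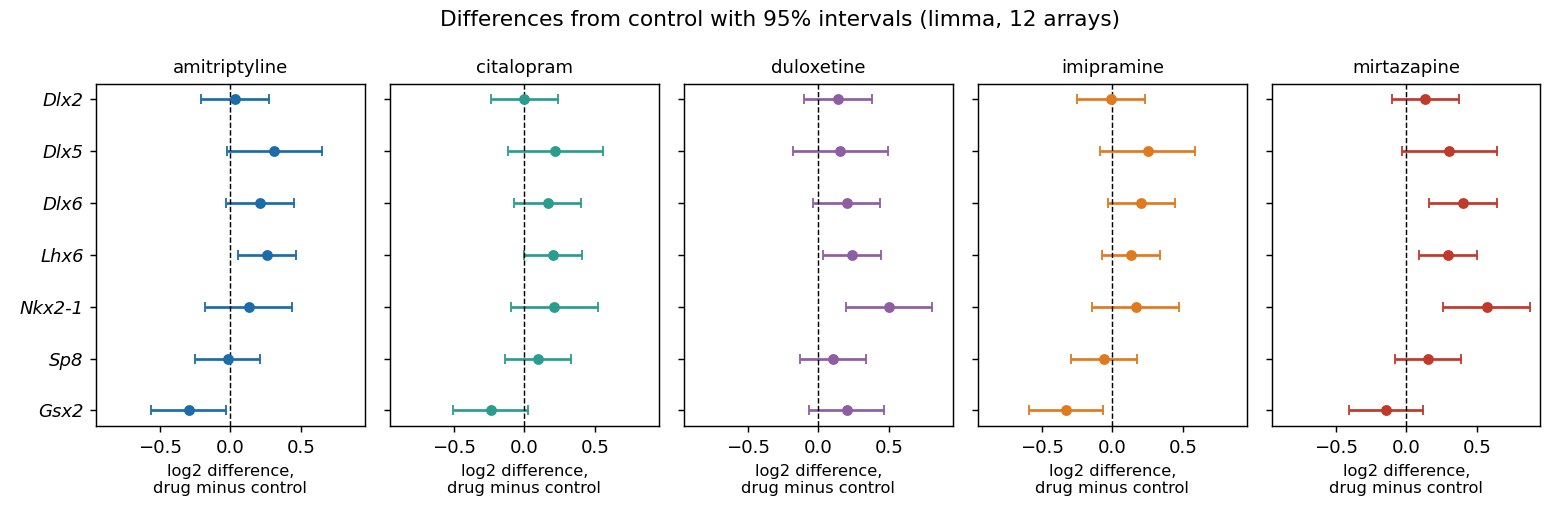
Log2 difference from control of each gene under each drug, drug minus control, with 95% intervals from the limma fit of all 12 arrays (not adjusted for the number of genes). The intervals that leave out 0 are those of Lhx6 and Gsx2 under amitriptyline, Lhx6 and Nkx2-1 under duloxetine, Gsx2 under imipramine, and Dlx6, Lhx6 and Nkx2-1 under mirtazapine; no adjusted p was under 0.05.

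Ordered by group mean, control was the lowest of the 6 groups for Dlx5, Dlx6, Lhx6 and Nkx2-1, and mirtazapine was the highest for Dlx6, Lhx6, Nkx2-1 and Sp8. For Gsx2 imipramine was lowest and duloxetine highest. For none of the 7 genes did 2 neighbouring groups in this order differ by more than the 95% half-width of a pair difference, which was between 0.21 and 0.34. The distance between the lowest and the highest mean was 0.15 for Dlx2, 0.22 for Sp8, 0.3 for Lhx6, 0.31 for Dlx5, 0.4 for Dlx6, 0.53 for Gsx2 and 0.57 for Nkx2-1.

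Counted per drug, 5 of 7 members were above both control arrays on both duloxetine arrays (15.5% of all genes), 4 under mirtazapine (22.6%), 3 under amitriptyline (14.1%) and citalopram (17%) each, and 2 under imipramine (14.3%). Gsx2 was the 1 member below both controls under amitriptyline (24.2% of all genes), citalopram (22.1%), imipramine (19.1%) and mirtazapine (30.6%), and 0 members were below under duloxetine (18.3%). On the 1 array left without duloxetine replicate 2, 6 members were above (33.1%), and on the 1 left without mirtazapine replicate 2, 5 were (34% of all genes).

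The tricyclics amitriptyline and imipramine, which differ in the central ring atom that carries the side chain, were the 1 pair given at the same concentration. Of the 7 members 0 passed between them (0% of all genes), with an adjusted p of 1 for each. The differences, amitriptyline minus imipramine, lay between -0.04 for Nkx2-1 and 0.13 for Lhx6, with 95% intervals of -0.34 to 0.27 and -0.08 to 0.33.

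Across the 12 arrays the members mostly varied in the same direction. Of 21 pairs, 19 had a positive Pearson correlation (median r = 0.517), and 18 without the arrays that stand apart (median 0.496). These are descriptions: arrays share their group, and each gene has 1 value per array. The share of positive pairs over all genes is not given, so shifts common to whole arrays are not separated from these correlations. Lhx6 had r = 0.759 with Dlx5 over 12 arrays and 0.882 over 10, but 0.314 without control replicate 1. With Dlx6 it had 0.735 and 0.851, and 0.615 without control replicate 1. The 2 negative pairs over 12 arrays were those of Gsx2 with Dlx5 (-0.319) and with Dlx6 (-0.028, and -0.704 over 10 arrays). Gsx2 had r = 0.53 with Dlx2, 0.446 with Nkx2-1, 0.425 with Sp8 and 0.006 with Lhx6 over 12 arrays. Over 10 arrays these were 0.472, 0.074, 0.496 and -0.388.

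The genes whose pattern over the 12 arrays was most like each member, among the genes tested other than predicted genes, clones and small RNAs, differed from member to member. For Lhx6 they were Satb1 (r = 0.954), encoding a chromatin organiser, Hipk1 (0.93) and Atp11a (0.905), each at 0.941 or more over 10 arrays. Satb1 had group means of 9.42, 9.36, 9.36, 9.32 and 9.46 with amitriptyline, citalopram, duloxetine, imipramine and mirtazapine, against 9.22 in control. For Dlx5 they were the cholesterol synthesis enzyme genes Mvd (0.937), Dhcr7 (0.924) and Sc5d (0.912). Mvd was also lowest on control replicate 1 (9.64, against 10.2 or more on every other array).

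For Gsx2 the most alike were Bmp7 (r = 0.968 over 12 arrays, 0.965 over 10), encoding a bone morphogenetic protein, the oligodendrocyte lineage gene Sox10 (0.928 and 0.855) and Tmem163 (0.926 and 0.876). Sox10 had log2 values of 7.34 and 7.79 with duloxetine, against 7.26 and 7.45 in control, and lay between 6.81 and 6.94 on the arrays of amitriptyline, citalopram and imipramine. With mirtazapine it lay at 6.8 and 7.28. For Nkx2-1 the genes were Hs3st6 (0.951), Slc4a5 (0.938) and Uimc1 (0.937), and for Dlx6 they were Ptgs2os (0.939), Scd4 (0.933) and Pglyrp2 (0.917). Over 10 arrays the first of these stood at 0.904 and 0.866. Dlx2 was nearest to Ifna7 (0.931), Reg3b (0.865) and Thsd7a (0.826), and Sp8 to Arid3a (0.931), Morn5 (0.856) and Tgm7 (0.84).

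**Figure D3:**
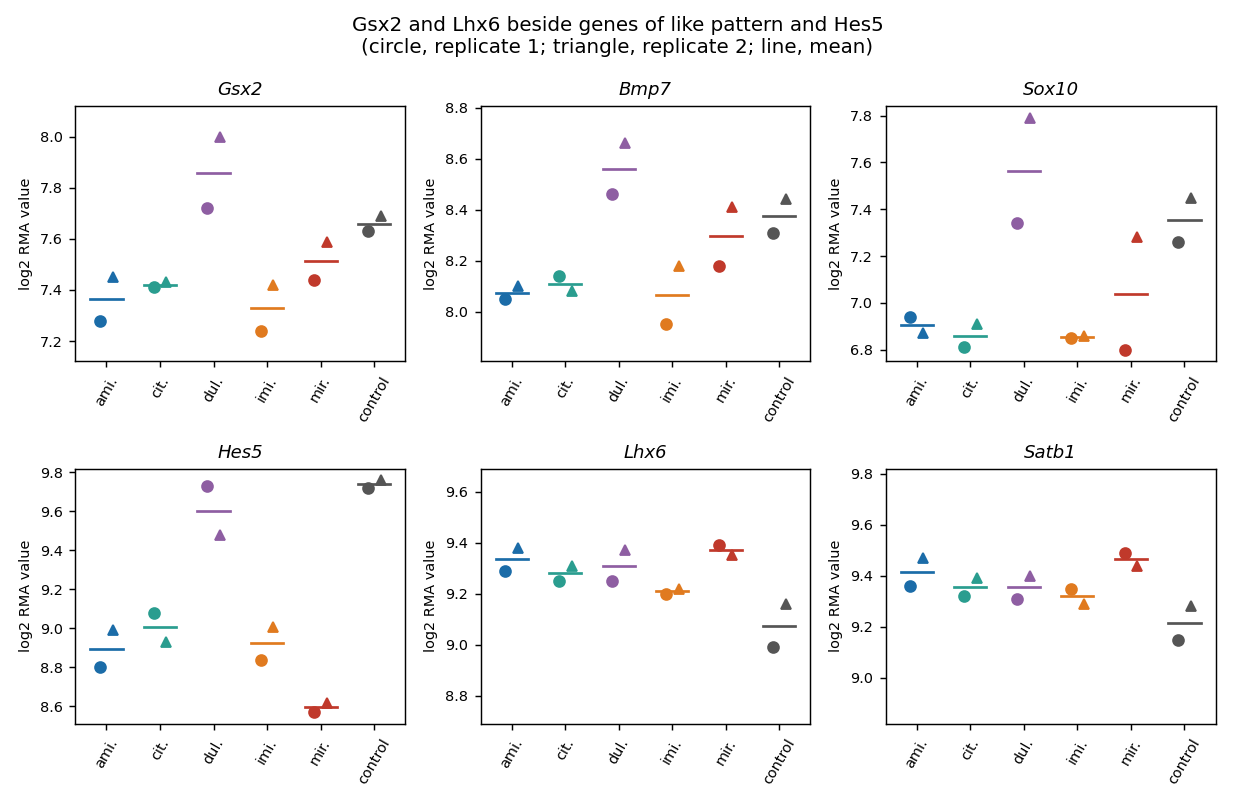
Log2 RMA values by group on each array for Gsx2 with Bmp7, Sox10 and the Notch target Hes5, and for Lhx6 with Satb1; lines are means of 2 arrays. Gsx2, Bmp7 and Sox10 have their highest mean with duloxetine, while Hes5 has its highest in control and its lowest with mirtazapine, and Lhx6 and Satb1 have their lowest in control.

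The genes that give interneurons their GABA phenotype had positive differences as well, except Gad1 under duloxetine (-0.055), and none passed the threshold. Without duloxetine replicate 2, which stands apart, all 3 were positive there. Gad2, encoding a GABA-synthesising enzyme, had 9.68 and 9.29 with mirtazapine, against 8.64 and 9 in control (log2 difference 0.67 ± 0.17 SE, adjusted p = 0.0796). Gad1, encoding the other such enzyme, had 8.16 and 8.38 with mirtazapine, against 7.68 and 7.81 in control (0.53 ± 0.12 SE, adjusted p = 0.0629), and both genes were above both control arrays on both mirtazapine arrays. Slc32a1, the vesicular GABA transporter gene, differed by 0.24 under mirtazapine (adjusted p = 0.244). Over the 3 genes the median was 0.235 for amitriptyline, 0.28 for citalopram, 0.125 for duloxetine (0.24 without that array) and 0.22 for imipramine.

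Of 19 other regulators of the lineage, 0 passed under any drug. Their medians were -0.02 under amitriptyline, 0.03 under citalopram, 0.125 under duloxetine, -0.015 under imipramine and 0.18 under mirtazapine (for mirtazapine 0.07 without the arrays that stand apart). Lhx8 lay below the filter. Among 20 genes of interneuron subtypes and migration, 0 rose and 3 fell under mirtazapine: Calb2, encoding calretinin (log2 difference -1.38, adjusted p = 0.00751), and the semaphorin receptor genes Nrp2 (-1.12, adjusted p = 0.021) and Nrp1 (-0.93, adjusted p = 0.0351). The median of those 20 genes was 0.065, and in this list 0 passed under the other drugs. Leaving out the arrays that stand apart leaves mirtazapine 1 array and takes the spread from the other groups. The mirtazapine median was then 0.415 for the GABA genes (0.525 with all arrays) and 0.085 for the subtype and migration genes. Some calls were made only in that fit. Under mirtazapine they fell in the GABA, the other regulator and the subtype and migration lists. Under amitriptyline and for the mean of the drugs they fell in the subtype and migration list. They are not counted, because the share of all genes called in it is not given.

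Lists for other cell types are given beside the members. Of 14 excitatory lineage genes, 13 had negative differences under amitriptyline, 12 under citalopram, 10 under duloxetine, 11 under imipramine and 10 under mirtazapine. Of all genes, 41.7%, 47.4%, 46.6%, 45.9% and 44.1% had positive differences in the same order of drugs. The medians of the excitatory genes ran from -0.25 under mirtazapine (-0.15 without mirtazapine replicate 2) to -0.08 under duloxetine. The vesicular glutamate transporter gene Slc17a7 was the 1 that fell, under mirtazapine (-0.71, adjusted p = 0.0365). Of 11 cell cycle markers 9 fell under mirtazapine (median -0.7): Mki67, Top2a, Cdk1, Ccnb2, Ccna2, Nusap1, Birc5, Aurkb and Mcm5. Also under mirtazapine, 1 of 10 radial glia and progenitor markers fell (Hes5, -1.14, adjusted p = 0.00681), as did 2 of 7 astrocyte markers (Gfap and Aqp4) and 1 of 7 oligodendrocyte lineage markers (Olig1). For the mean of the drugs, Hes5 (-0.73, adjusted p = 0.0345) and Aqp4 fell. These calls were lost without control replicate 1, when 0 of all genes passed in either comparison. Without the arrays that stand apart, the cell cycle median was -0.69 under mirtazapine (1 array). It was -0.585 under amitriptyline and -0.525 under imipramine, as with all 12 arrays. Under mirtazapine the medians were then -0.19 for the progenitor, -0.35 for the astrocyte and -0.555 for the oligodendrocyte list. The calls of Mki67, Birc5, Slc17a7 and Olig1 under mirtazapine were lost in that fit. Other list genes passed only in it, under amitriptyline and imipramine too. They are not counted, because the share of all genes called in it is not given.

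The mean over the 7 oligodendrocyte lineage markers, set to 0 in control, was 0.272 and 0.312 on the duloxetine arrays and between -0.622 and -0.361 on the other 8 drug arrays, against -0.255 and 0.255 in control. The mean over the cell cycle markers was -0.025 and -0.313 on the duloxetine arrays and between -0.77 and -0.429 on those of the other drugs, against 0.061 and -0.061 in control. Gsx2 was above both control arrays on the duloxetine arrays and below them on those of the other drugs. In control and with duloxetine and mirtazapine, the array of higher Gsx2 had the lower cell cycle mean. With duloxetine and mirtazapine that array is replicate 2, which stands apart. With amitriptyline, citalopram and imipramine the array of higher Gsx2 had the higher cell cycle mean. Over 12 arrays Gsx2 had r = 0.588 with Top2a, 0.668 with Hes5 and 0.659 with Aqp4 (0.876, 0.873 and 0.908 over 10). With Gad1 and Gad2 it had -0.532 and -0.433 (-0.584 and -0.369 over 10). Arrays share their group, so these are descriptions. The part of oligodendrocyte lineage or cycling cells in the Gsx2 values was not tested. The 10 pan-neuronal markers had medians between -0.07 and 0.033, the 8 striatal projection neuron markers between -0.2 and -0.07, the 8 microglia markers between -0.06 and 0.193 and the 7 endothelial and mural markers between -0.04 and 0.145, with 0 genes called in these lists. Without the arrays that stand apart, the microglia median was -0.12 under duloxetine and 0.085 under mirtazapine. That of the endothelial and mural markers was 0.095 under duloxetine and -0.07 under mirtazapine. Pdgfrb, a mural cell marker, passed under amitriptyline only in that fit.

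**Figure D4:**
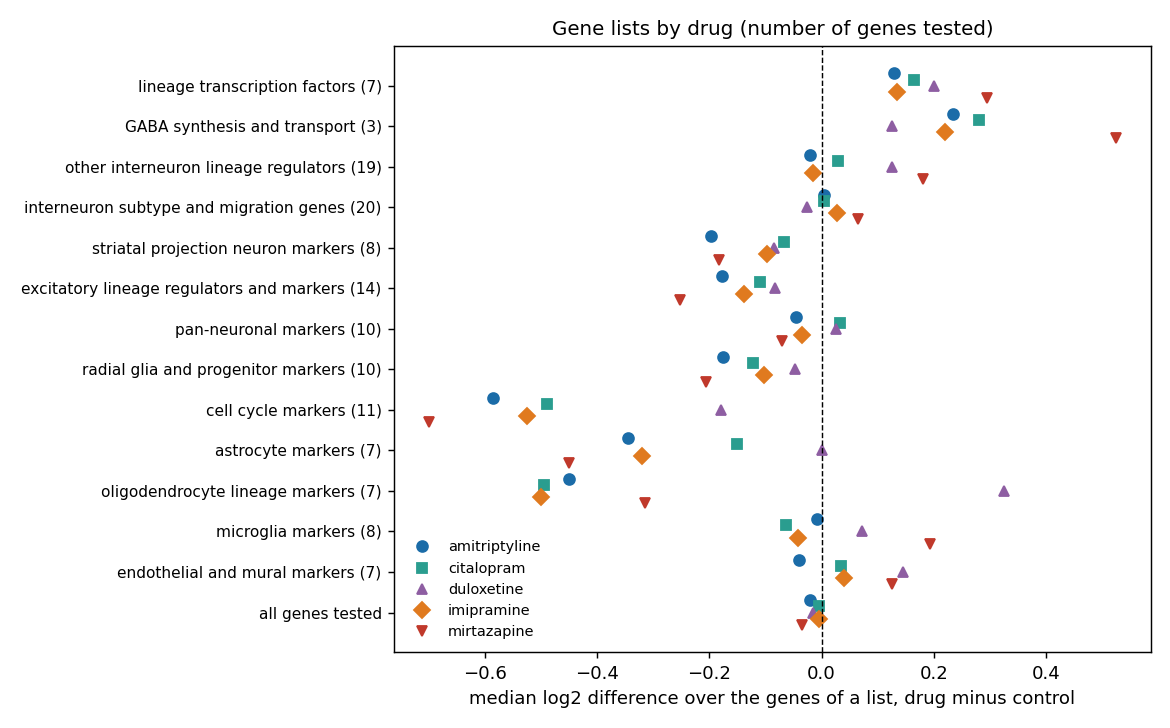
Median log2 difference over the tested genes of each list (drug minus control), 1 symbol per drug; the number of genes is in brackets and the bottom row is all genes tested. The lineage factors and the GABA genes have positive medians under all 5 drugs, and the excitatory, striatal, progenitor and cell cycle lists negative ones; without duloxetine replicate 2 the duloxetine median was 0.005 for the cell cycle list and -0.005 for the progenitor list.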

How the data were processed

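Each array has 1 column of deposited log2 values. RMA in Affymetrix Expression Console is named for them, per the submitters' processing notes; software versions and the build were not given in the sources used here. Such values hold no counts, and having 2 arrays a group limits how precise they are. Of 41345 probe sets, 23521 had 1 gene symbol and 1814 several in the platform annotation. A gene was its probe set of highest mean, kept if its mean reached 5.72, the 30th percentile over probe sets; 17467 genes passed. All 12 arrays entered 1 limma 3.58.1 fit (R 4.3.3; lmFit, eBayes without trend, 6 residual and 3.86 prior degrees of freedom). Tests were two-sided, with Benjamini-Hochberg adjustment over all 17467 genes and a threshold of 0.05. The fit was tested on simulated data. Named genes are the 7 members, the list genes that passed, the GABA genes, Sp9, Lhx8, Dlx6os1 and Gsx1. Per member the 3 genes of highest Pearson r are named too, passing over predicted genes, clones and small RNAs. Nefm was named after its values were seen, as was Pdgfrb, which passed only without the 2 arrays that stand apart. The members and lists were chosen with earlier results of these data known. The fit did not pair arrays by replicate number, and whether the numbers pair them cannot be settled here. Of 15 correlations of the replicate difference between groups, 4 exceeded 0.1. The lowest (-0.438) and the highest (0.712) involve groups with an array that stands apart. Among amitriptyline, citalopram and imipramine the values ran from 0.125 to 0.196, and between these drugs and control from -0.134 to 0.067. Replicate 2 was above replicate 1 by a positive member median in all 6 groups. Plots used Python 3.11.15 and matplotlib 3.10.9.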

Additional observations from a re-analysis of the deposited data

How the results depend on the processing

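The alternatives changed the filter (none, or the 50th percentile), fitted all probe sets singly, normalized by quantiles a second time, centred arrays on their median, used a robust eBayes with a trend, weighted the arrays or added a replicate block. Others were each array left out, only the groups compared, and both arrays that stand apart left out; the last together with the block was added after seeing the data. The count of members called was 0 in each comparison and stayed 0 in all of these except with an array left out. A group left with 1 array is assumed to vary like the others, which alone supply its spread. Leaving out 1 array gave 0 to 1 members under duloxetine and 0 to 2 under mirtazapine. Nkx2-1 passed under duloxetine without duloxetine replicate 1 (0.595, adjusted p = 0.0458), which leaves the array that stands apart. Under mirtazapine Nkx2-1 and Dlx6 passed without mirtazapine replicate 1 (0.735 and 0.535, adjusted p = 0.0308 and 0.0314) and, at 0.57 and 0.4, without either duloxetine array (adjusted p = 0.0372 and 0.0439). Without control replicate 1, mirtazapine had 0 calls over all genes.

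With a replicate block 0 members were called in any comparison, and mirtazapine had 234 calls over all genes, against 304. The amitriptyline minus imipramine difference of Dlx6 turned to -0.027 with a second quantile normalization and -0.03 with arrays centred, and that of Sp8 to -0.00521 with that normalization. A 50th percentile filter removed Nkx2-1 and Sp8, which have no value under it. Leaving out 1 array turned the sign of 22 of 672 member values, in these ranges. Dlx5 ran from -0.035 to 0.475 under citalopram, -0.1 to 0.41 under duloxetine, -0.005 to 0.505 under imipramine and -0.007 to 0.503 for the mean of the drugs. Dlx2 ran from -0.08 to 0.14 under amitriptyline, -0.12 to 0.1 under imipramine and -0.051 to 0.169 for the mean, and Sp8 from -0.13 to 0.09, -0.15 to 0.03 and -0.035 to 0.145. Amitriptyline minus imipramine ran from -0.06 to 0.14 for Dlx2, -0.035 to 0.155 for Dlx5, -0.03 to 0.04 for Dlx6, -0.07 to 0.15 for Sp8, -0.055 to 0.125 for Gsx2 and -0.145 to 0.075 for Nkx2-1. Calls over all genes ranged over the alternatives from 0 to 228 under amitriptyline, 76 under citalopram, 2040 under duloxetine, 128 under imipramine, 1450 under mirtazapine, 243 for the mean and 349 for the F test.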
